A study of Homo sapiens with 7 samples.

Results

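ERN1 and ATF6 encode 2 of the membrane sensors of endoplasmic reticulum stress (ERS), and their super-enhancers (SEs) were examined in HepG2, a human liver cancer cell line. H3K27ac, an acetyl mark on the tail of histone H3 that is found at active promoters and enhancers, had been profiled by ChIP-seq in 3 libraries of cells treated with tunicamycin (TM) and in 3 libraries of cells treated with DMSO, the solvent. They are named here TM 1 to TM 3 and DMSO 1 to DMSO 3. TM stops N-linked glycosylation in the endoplasmic reticulum, so that misfolded proteins accumulate and ERS follows. For these libraries the sources used here give neither the dose nor the duration of TM. The study's general statement on statistics says that experiments were repeated, but neither it nor the labels say for these libraries that replicates came from separate cultures, so the spread behind the p-values may be technical. An SE is a cluster of neighbouring H3K27ac peaks, stitched into a single region, whose summed signal lies above a threshold set in each library. All but 11 of the deposited SEs carry the gene with the nearest transcription start site, which is called the linked gene here, and the entries linked to ERN1 or ATF6 were taken. They numbered 4 of 7472 SEs, 3 linked to ERN1 and 1 linked to ATF6, and the 2 genes were among 2002 linked genes in all.

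Unfolded proteins are sensed through the lumenal domains of IRE1α (the product of ERN1), ATF6 and PERK (the product of EIF2AK3). IRE1α is a kinase and endoribonuclease that cuts the XBP1 mRNA, which after religation encodes an active transcription factor. ATF6 moves to the Golgi, where the proteases MBTPS1 and MBTPS2 release its cytosolic bZIP domain to act as a transcription factor on chaperone genes. PERK phosphorylates the translation initiation factor eIF2α and thereby favours translation of ATF4. In hepatocytes, which secrete large amounts of protein, these branches adjust folding capacity and lipid metabolism.

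The TM lists held 1130, 1507 and 1253 SEs, and the DMSO lists 1132, 1290 and 1160. Median SE length was 38.0 to 44.0 kb in the TM libraries and 50.9 to 65.5 kb in the DMSO libraries, and the median number of peaks per SE was 7 to 8 in the TM libraries and 13 to 16 in the DMSO libraries. Median density, the signal per bp, was 0.773 to 1.09 in the TM libraries and 0.580 to 0.710 in the DMSO libraries. These differences in the lists as a whole accompany every comparison below, and their part in it was tested only through the scalings given there. Among the hepatocyte genes checked, FOXA1, a liver pioneer factor, was linked to an SE in 2 DMSO libraries and in no TM library, whereas APOA1, APOB, ALB, TTR, AFP, HNF4A, FOXA2 and SERPINA1 were linked to none in any library. By linked gene, the SE lists therefore do not show the defining markers of the labelled cell type. Whether an SE at the loci of these markers was linked to another gene was not checked. Read totals are unknown.

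The ERN1 SE ended at the start site of the gene and the ATF6 SE spanned the start site, so the promoters are shown here, 250 bases before to 50 bases after the start, as given by RefSeq on GRCh38.p14. The deposited SE positions are on a different, unnamed build, and the coordinates below must not be set against them. Capitals mark the single hit in each window among 6 motifs searched on both strands. These were ERSE (CCAAT, 9 bases of any kind, CCACG), ERSE-II (ATTGG, 1 base of any kind, CCACG), the UPRE core (TGACGTGG), the ATF core (TGACGT, which the UPRE core contains), the CCAAT box (CCAAT, which ERSE and ERSE-II contain) and CCACG (likewise contained in ERSE and ERSE-II). The windows lie at chr17:64130095-64130394 on the minus strand for ERN1 and at chr1:161766070-161766369 on the plus strand for ATF6.
ERN1: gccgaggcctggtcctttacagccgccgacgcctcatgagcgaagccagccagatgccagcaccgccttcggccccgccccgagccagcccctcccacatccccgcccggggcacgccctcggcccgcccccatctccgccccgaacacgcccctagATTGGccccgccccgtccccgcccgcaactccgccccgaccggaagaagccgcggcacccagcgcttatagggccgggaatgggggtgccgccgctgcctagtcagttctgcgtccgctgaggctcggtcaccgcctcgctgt
ATF6: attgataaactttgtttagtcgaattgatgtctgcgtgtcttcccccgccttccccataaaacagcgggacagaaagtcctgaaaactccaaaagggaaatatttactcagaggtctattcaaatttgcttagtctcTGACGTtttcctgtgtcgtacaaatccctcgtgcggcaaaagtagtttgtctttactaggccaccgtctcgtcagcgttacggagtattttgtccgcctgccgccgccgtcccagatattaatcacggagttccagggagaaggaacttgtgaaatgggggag

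The ERN1 window was GC-rich, with 73.7% G or C and 35 CG dinucleotides, and held a CCAAT box on the reverse strand (read as ATTGG) at position -93, counted from the start site. The ATF6 window had 47.0% G or C and 17 CG dinucleotides, and held an ATF core at position -113. Among 35116 promoter windows of the same length the median G or C content was 58.7%, which places ERN1 at percentile 87.7 and ATF6 at percentile 24.6. A CCAAT box occurred in 34.6% of all windows and an ATF core in 7.98%. Neither window held an ERSE (0.0769% of all windows), an ERSE-II (0.0541%), a UPRE core (0.729%) or a CCACG (38.1%). Of the other 8 sensors and homologues, EIF2AK3 had 4 CCAAT boxes and 1 CCACG, whereas ERN2 and CREB3L1 had no hit of any motif. A match is a description of the letters only.

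An SE was linked to ERN1 in TM 1, TM 2 and TM 3, and none was linked to it under DMSO. On the deposited coordinates the SE lay on chromosome 17 at 62150810–62207517 in TM 1, 62150907–62207529 in TM 2 and 62150832–62207525 in TM 3. Its edges were nearly the same in the 3 libraries, with starts spread over 97 bp and ends over 12 bp, and its length was 56.71, 56.62 and 56.69 kb (mean 56.67 ± 0.0456 kb, SD, n = 3). ERN1 is transcribed from the minus strand, and the SE reached from 0.0145, 0.027 and 0.0225 kb upstream of the transcription start site to 56.69, 56.59 and 56.67 kb into the gene in TM 1, TM 2 and TM 3. Its midpoint fell in intron 1 of 21 (NM_001433), 28.34, 28.28 and 28.32 kb from the start site. The merged region (62150810–62207529) overlapped no SE linked to any other gene in any library.

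The summed H3K27ac signal of the ERN1 SE was 34188.7 in TM 1, 52901.9 in TM 2 and 32519.1 in TM 3, in the deposited units (39870 ± 11300, SD, n = 3). TM 2 was the highest and the other 2 TM libraries lay close together. Among the TM libraries the lowest listed signal was also highest in TM 2, at 26264.6 against 18282.0 in TM 1 and 18883.8 in TM 3. Divided by that threshold, the ERN1 SE had a margin of 1.870, 2.014 and 1.722 in TM 1, TM 2 and TM 3 (1.869 ± 0.146), and the coefficient of variation was 7.82% for the margin and 28.4% for the signal. It ranked 429 of 1130, 551 of 1507 and 554 of 1253 by signal, that is, at 38.0%, 36.6% and 44.2% of the way down each list. The ERN1 SE was thus a mid-list SE in each TM library, and its signal was 1.172, 1.277 and 1.059 times the library median.

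**Figure D1:**
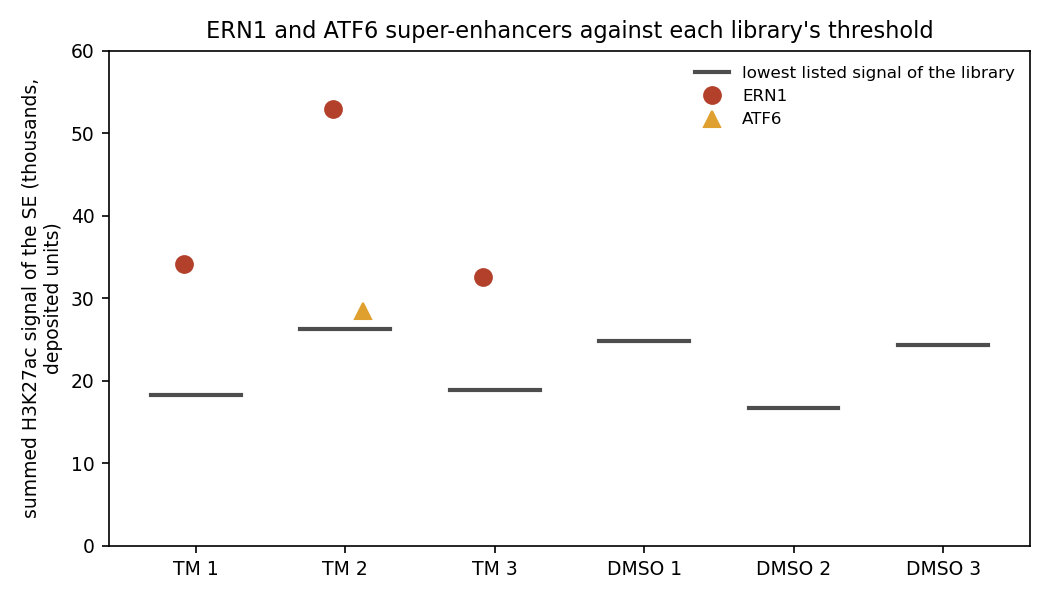
Summed H3K27ac signal (axis in units of 1000, deposited scale) of the SEs linked to ERN1 (circles) and ATF6 (triangle) in each library, with the lowest listed signal of that library as a bar. The 3 ERN1 signals, 34188.7, 52901.9 and 32519.1, lie above the bars of all 6 libraries, the ATF6 signal in TM 2 (28492.7) lies just above its own bar, and the DMSO libraries list neither gene.

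The ERN1 SE was longer and sparser than most SEs of the same lists. Its length was 1.388, 1.287 and 1.492 times the median of TM 1, TM 2 and TM 3. Its density was 0.6029, 0.9343 and 0.5736 per bp (0.7036 ± 0.2), which is 0.7795, 0.8564 and 0.6453 times the median. By length it ranked 303, 509 and 261, and by density 845, 955 and 1086. The number of peaks stitched into it was 13, 9 and 7 (9.67 ± 3.06), although the outer edges hardly moved. The number of peaks therefore varied over the same interval, and the library with most peaks, TM 1, had a signal between the other 2.

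**Figure D2:**
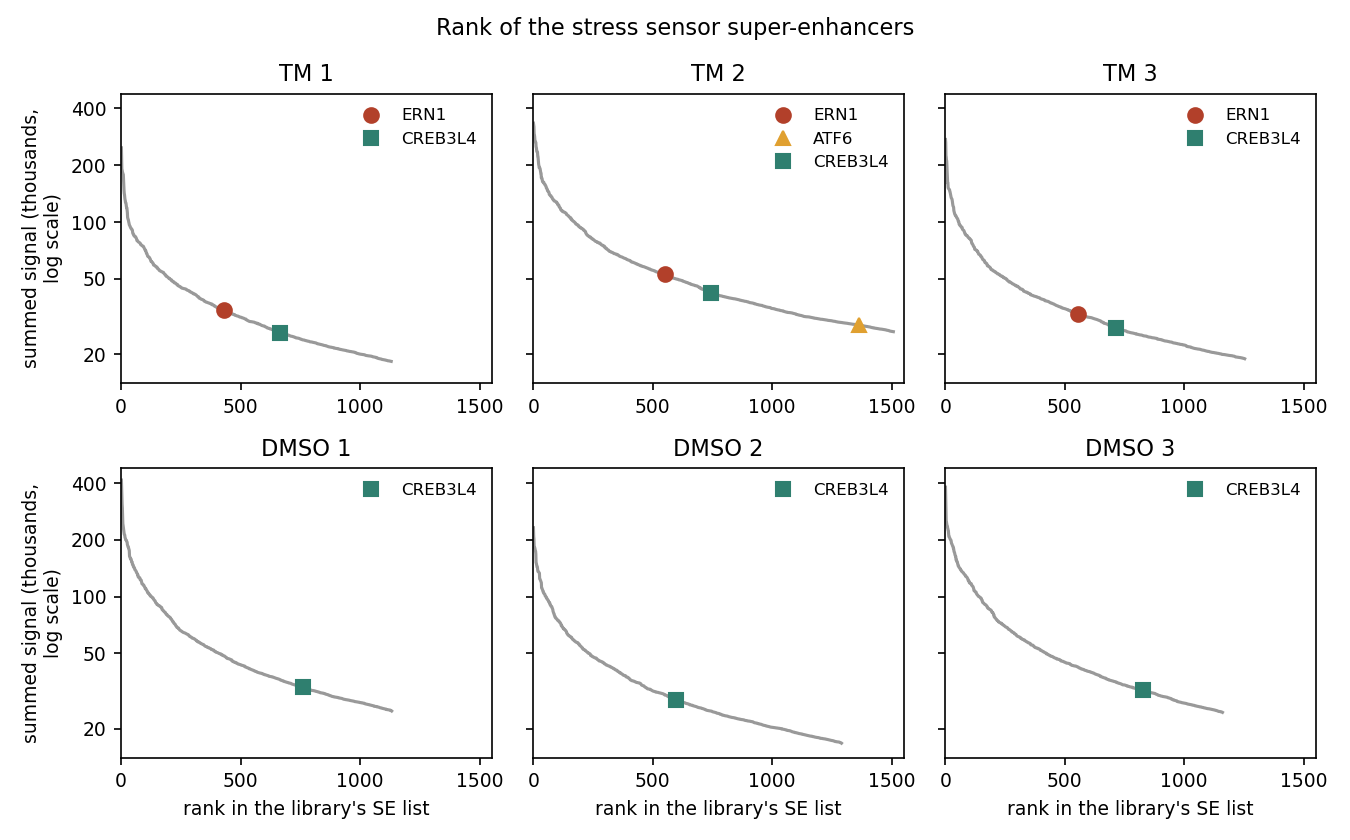
Summed signal (axis in units of 1000, log scale) of every listed SE against its rank, 1 panel per library, TM above DMSO, with the SEs linked to ERN1, ATF6 and CREB3L4 marked. ERN1 ranks 429, 551 and 554 in TM 1, TM 2 and TM 3, ATF6 ranks 1362 near the end of the TM 2 list, and the DMSO panels hold only CREB3L4.

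The comparison of TM with DMSO asked whether ERS was accompanied by a change of the SE at a gene that senses it. The call of the ERN1 SE, made in 3 of 3 libraries under TM against 0 of 3 under DMSO, had the smallest p that 3 against 3 can give (exact permutation test over samples, two-sided, p = 0.1). Of all 2002 linked genes, 139 had the same pattern, which is 6.94%. A DMSO library that does not list the region gives no signal for it, but a region stitched in the same way would have been listed if its signal had passed the threshold. The thresholds of DMSO 1, DMSO 2 and DMSO 3 were 24792.5, 16746.7 and 24383.2. Under that condition these are upper limits, and the lowest ERN1 signal in TM (32519.1 in TM 3) was 1.312 times the highest DMSO limit. All 9 ratios of a TM signal to a DMSO limit lay above 1, between 1.312 and 3.159.

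With each DMSO library set at its limit, the difference between TM and DMSO was at least 0.85 on the log2 scale, or 1.798-fold, for a region stitched alike. The SD of the log2 values was 0.386 in TM and 0.320 for the DMSO limits (n = 3 each), with p = 0.1 (exact permutation test, two-sided). The DMSO values are thresholds and not measurements at ERN1, so this p adds no evidence beyond the call. After division by the median density of the 670 regions called in all 6 libraries, ERN1 had 42620, 46710 and 34660 in TM, against limits of 31450, 26090 and 31980 in DMSO. Each TM value still lay above every limit, with a bound of 0.46 on the log2 scale (1.38-fold). The lowest TM value was 1.084 times the highest limit. What share of the other TM-only genes clears the limits, on any scale, is not given here. Per 1000 units of total signal over the shared regions, ERN1 had 1.006, 0.893 and 0.840 in TM, against limits of 0.514, 0.480 and 0.501 in DMSO, a bound of 0.87 on the log2 scale. Both scalings gave p = 0.1 in the exact permutation test, again with limits in place of DMSO measurements. A DMSO signal of the same extent would have had a density of at most 0.4375, 0.2955 and 0.4302 per bp in DMSO 1, DMSO 2 and DMSO 3, against 0.6029, 0.9343 and 0.5736 in TM. A stretch stitched into shorter pieces in DMSO is not covered by these limits, and fewer cells with acetylation and less acetylation per cell cannot be told apart in such bulk samples.

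Among the 126 genes with this TM-only pattern and a single SE in each TM library, ERN1 stood in the upper part by size and low by density. Its mean length ranked 15 (56.67 kb against a median of 31.52 kb), its lowest margin ranked 25 (1.722 against a median of 1.262) and its mean signal ranked 30 (39870 against a median of 30540). Its mean density ranked 111 (0.7036 against a median of 1.030). The spread of its edges between libraries, 97 bp, was the second smallest of the 126, whose median was 7449 bp. These ranks describe the deposited lists.

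The genes whose margins were most like those of ERN1 were sought among the other 125, by Euclidean distance of the log2 margin over the 3 TM libraries. ACSM6, annotated as a medium-chain acyl-CoA synthetase, was nearest (distance 0.079), with margins of 1.974, 2.007 and 1.712. PC, which encodes pyruvate carboxylase and makes oxaloacetate, followed with 2.068, 2.046 and 1.884. GADD45B, a stress-inducible regulator of growth arrest, was at the same distance as PC (0.196) with 1.734, 1.800 and 1.748. The midpoint of the GADD45B SE lay 63.02 to 64.20 kb from the start site of that gene. HKDC1, a hexokinase domain protein, had 1.648, 2.119 and 1.674 (distance 0.201), and PDE1C, a cyclic nucleotide phosphodiesterase, had 2.081, 1.928 and 1.922 (distance 0.230). With 3 libraries the measure says only that the margins were of similar size.

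ATF6 was linked to an SE in TM 2 only. The SE lay on chromosome 1 at 161718847–161752352, 33.51 kb long and made of 5 peaks. ATF6 is transcribed from the plus strand, and the SE reached from 17.19 kb upstream to 16.32 kb downstream of its start site, and its midpoint, at -0.435 kb from the start site (negative is upstream), was annotated to the promoter of NM_007348. No other library listed an SE that overlapped this region. In contrast to the ERN1 SE, which lay within the gene, the ATF6 SE was thus centred on the promoter.

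The ATF6 SE had a signal of 28492.7 and a density of 0.8504 per bp. It ranked 1362 of 1507 by signal, at 90.4% of the way down the TM 2 list, and its margin over the threshold was 1.085. It was also below the TM 2 medians, with 0.6878 times the median signal, 0.7615 times the median length and 0.7795 times the median density. The ATF6 SE was therefore close to the threshold in the library that has the longest list and the highest densities. It was absent when the 1130 strongest SEs of each list were kept, and likewise when a margin of 1.5 was required.

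The ATF6 call in 1 of 3 TM and 0 of 3 DMSO libraries gave a two-sided exact permutation p of 1.0. Of the 2002 linked genes, 273 (13.6%) were linked in exactly 1 TM and no DMSO library, and 187 (9.34%) in TM 2 alone. By comparison, 46 genes were linked in TM 1 alone, 40 in TM 3 alone, and 44, 100 and 63 in DMSO 1, DMSO 2 and DMSO 3 alone. The ATF6 signal in TM 2 was 1.559 and 1.509 times the thresholds of TM 1 and TM 3, and 1.149, 1.701 and 1.169 times those of DMSO 1, DMSO 2 and DMSO 3. On the deposited scale a signal as high would thus have been listed in each of these libraries if stitched alike. After scaling by the shared regions this no longer held, since the ratio to the highest of these 5 thresholds was 1.149 as deposited, 0.787 by density and 0.894 by total signal. A difference in ATF6 acetylation between TM and DMSO was not detectable from the lists.

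Of the 186 genes with a single SE in TM 2 and none elsewhere, ATF6 ranked 116 by margin (median 1.122, range 1.001 to 10.1). The margins most like that of ATF6 among the other 185, compared in TM 2 alone, were those of SLC27A1 (1.086), which encodes a fatty acid transporter, ADORA2A-AS1 (1.084), an antisense RNA gene, MRPS16 (1.082), a mitochondrial ribosomal protein, MIR4474 (1.082), a microRNA gene, and RAB6A (1.089), a Golgi trafficking GTPase. A likeness over 1 library describes only a position in the TM 2 list.

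The chromosomal surroundings of ERN1 held SEs of the opposite pattern. TEX2, which encodes an endoplasmic reticulum membrane protein with a lipid-binding domain and lies next to ERN1 in the RefSeq gene order, was linked to an SE in 0 of 3 libraries under TM and 3 of 3 under DMSO (two-sided exact permutation p = 0.1). The share of all linked genes with this DMSO-only pattern was 4.7%. The TEX2 SE covered 62279148–62341325 in DMSO 1, 62279914–62323858 in DMSO 2 and 62277373–62341454 in DMSO 3, and at its closest lay 69.84 kb from the ERN1 region, upstream of the ERN1 start site. It had signals of 27351.7, 19146.4 and 29496.5 from 17, 10 and 17 peaks, and margins of 1.103, 1.143 and 1.210. It was thus nearer to the threshold in DMSO than the ERN1 SE was in TM. Set against the highest TM threshold on the deposited scale, the TEX2 signals were 1.041, 0.729 and 1.123 times as large. On that scale the signal of DMSO 2 would not have been listed in TM 2. This ratio was not scaled by the shared regions, whose median density was 0.6419 in DMSO 2 and 1.133 in TM 2, so it holds for the deposited scale only.

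An SE linked to SNORA50C, a small nucleolar RNA gene, was listed in DMSO 2 only, at 62222201–62251817, with its midpoint in intron 8 of 11 of TEX2 (NM_018469). It lay 14.67 kb from the ERN1 region, with a signal of 17668.9 and a margin of 1.055. Within 200 kb the listed signal was therefore on the ERN1 side in TM (34188.7, 52901.9 and 32519.1) and on the TEX2 side in DMSO (27351.7, 36815.3 and 29496.5, the DMSO 2 value summed over 2 SEs). Of the 135 TM-only merged regions, ERN1 was the second closest to a DMSO-only region, of which there were 97. The median gap was 9197 kb and 2 regions lay within 100 kb. Farther upstream, 396.6 kb from ERN1, SMURF2, a ubiquitin ligase of TGF-β signalling, was linked to an SE in TM 2 (signal 40436.6) and in all 3 DMSO libraries (31770.9, 37566.9 and 46608.9).

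**Figure D3:**
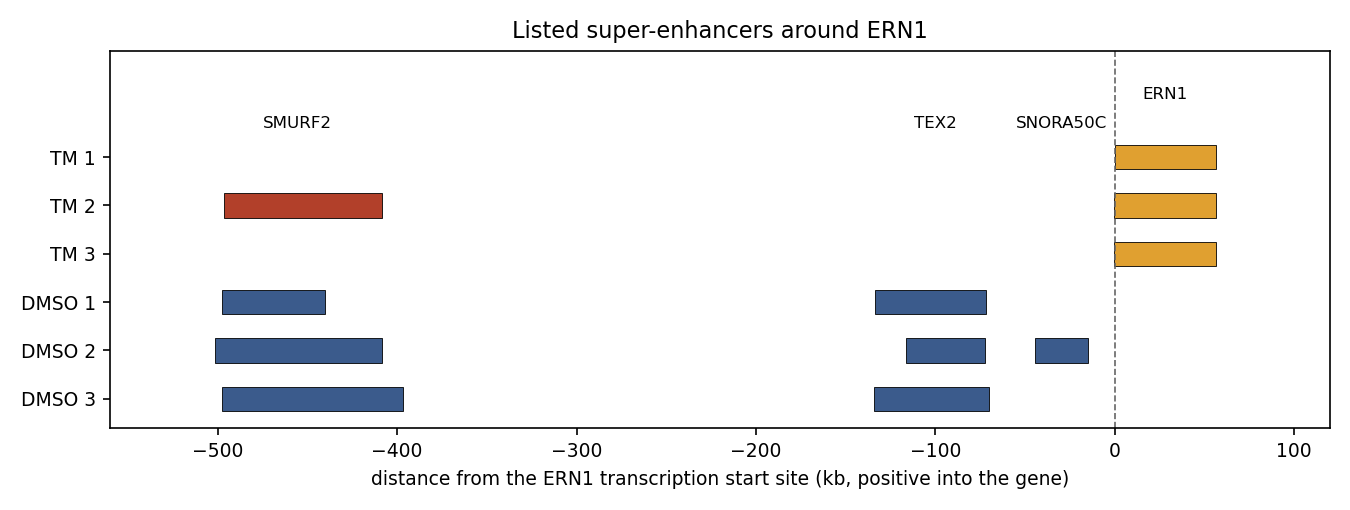
Listed SEs within 1 Mb of the ERN1 SE in each library, drawn by distance from the ERN1 start site (kb, positive into the gene, dashed line at 0), with ERN1 in yellow and other SEs in red for TM and blue for DMSO. The 3 TM libraries share the ERN1 block of 56.62 to 56.71 kb, and the 3 DMSO libraries list TEX2 instead, 69.84 kb away at its closest.

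ATF6 had no close neighbour among the listed SEs. The nearest, 563.2 kb away, was a stretch listed in the 3 DMSO libraries only and linked to C1orf226 in DMSO 1 and DMSO 2 and to NOS1AP, an adaptor of nitric oxide synthase, in DMSO 3. On the other side, 609.9 kb away, a stretch listed in the 3 TM libraries only was linked to NIT1, an amidase, in TM 1 and TM 3 (19277.8 and 19676.9) and to DEDD, a death effector domain protein, in TM 2 (29418.8). F11R, the junctional adhesion molecule A, was linked in TM 1 (21153.0) and TM 2 (33963.0) and in all 3 DMSO libraries. UAP1, which makes the UDP-GlcNAc that N-glycosylation consumes and whose SE lay 745.0 kb from ATF6, was linked in TM 2 (35637.9) and TM 3 (20128.6) and in no DMSO library. DDR2, a collagen receptor, was linked in no TM library and in each DMSO library (30815.5, 23340.2 and 27702.5). Of all linked genes 4.7% had this DMSO-only pattern. By list, SEs of TM alone thus lay on both sides of ATF6 and SEs of DMSO alone on its downstream side. None was closer than 563.2 kb. As deposited, the NIT1 signals and the TM 3 signal of UAP1 lay below the DMSO 1 and DMSO 3 thresholds (24792.5 and 24383.2). Equal signals would not have been listed there. The DEDD signal and the TM 2 signal of UAP1 lay above all DMSO thresholds. DDR2 in DMSO 2 lay below the TM 2 threshold (26264.6), and in DMSO 1 and DMSO 3 above it. The C1orf226 and NOS1AP signals lay above every TM threshold.

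**Figure D4:**
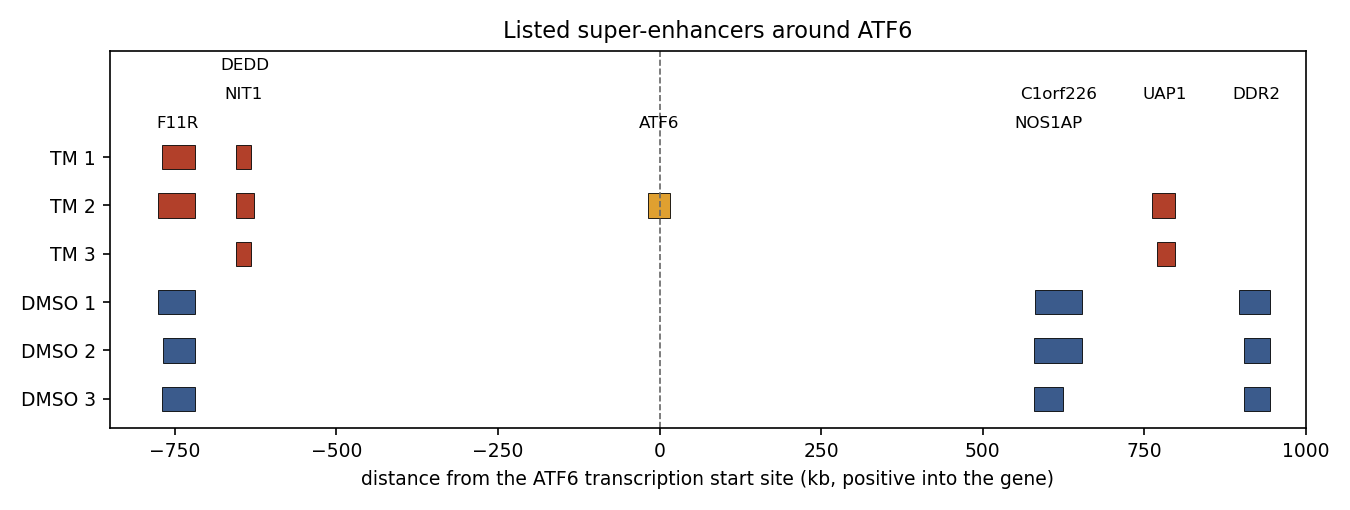
Listed SEs within 1 Mb of the ATF6 SE in each library, drawn by distance from the ATF6 start site (kb, positive into the gene, dashed line at 0), with ATF6 in yellow and other SEs in red for TM and blue for DMSO. The single ATF6 SE, 33.51 kb long, stands in TM 2, and the nearest other SE lies 563.2 kb away.

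Of the 10 ERS sensors and their homologues, 7 were linked to no SE in any of the 6 libraries. As background, 1466 of 20056 protein-coding genes of the RefSeq table (7.31%) were linked to an SE in any library, so most genes were linked to none. The 7 were EIF2AK3 (PERK, the third sensor), ERN2 (IRE1β, the epithelial homologue of ERN1), ATF6B (the ATF6 paralogue), and CREB3, CREB3L1, CREB3L2 and CREB3L3, which are membrane-bound bZIP factors cleaved in the Golgi like ATF6. For CREB3L2, however, an SE with the midpoint in its intron 1 in DMSO 1 and DMSO 2 was linked to the antisense gene CREB3L2-AS1. CREB3L2-AS1 was linked in all 3 DMSO libraries (49169.2, 36743.8 and 60978.7) and in no TM library, as were 4.7% of all linked genes. Absence of the name CREB3L2 is therefore not absence of an SE at its locus.

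CREB3L4, a further factor of this family, was the only sensor or homologue linked in all 6 libraries, as were 26.1% of all linked genes. Its signal was 25983.1, 42234.3 and 27434.7 in TM, against 33100.8, 28340.1 and 32075.1 in DMSO, so the groups overlapped. The means were 31880 ± 8990 in TM and 31170 ± 2510 in DMSO (SD, n = 3 each), a log2 difference of 0.03 (exact permutation test, two-sided, p = 1.0). The log2 difference was -0.37 after scaling by the density of the shared regions (p = 0.1, exact permutation test) and 0.02 after scaling by their total signal (p = 0.8, exact permutation test). Its margins were 1.421, 1.608 and 1.453 in TM and 1.335, 1.692 and 1.315 in DMSO. No direction can therefore be given for CREB3L4. The lower bound for ERN1 stayed above 0 under the same scalings, but it rests on DMSO thresholds and on a region stitched alike. It is not a measured difference like that of CREB3L4, so these values do not compare the genes.

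The genes that act around the sensors were taken from lists of 121 genes in all. Apart from ERN1 and ATF6, 14 of the other 119 were linked to an SE, 5 of them in TM only, 1 in DMSO only and 3 in all 6 libraries. Of all protein-coding genes 7.31% were linked to an SE, and 6.94% of all linked genes were TM-only and 4.7% were DMSO-only. Of 21 regulators of IRE1, among them the chaperone HSPA5 (BiP), 1 was linked. This was PTPN1, an endoplasmic reticulum tyrosine phosphatase, in 0 of 3 TM and 3 of 3 DMSO libraries, where its strongest SE had margins of 2.642, 1.671 and 1.445. NCK1, an adaptor of the same list, was not linked by name, although an SE annotated within NCK1 was linked to IL20RB in 5 libraries. None of the 22 outputs of IRE1 and targets of XBP1, including XBP1 itself, the mRNA ligase RTCB, DNAJC3 and EDEM1, was linked in any library.

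Of 22 genes of ATF6 processing and its targets, 2 were linked. SP1, a general transcription factor, was linked in TM 2 (34016.8) and under DMSO in each library (29248.6, 23379.4 and 27515.4). DERL1, a channel component of endoplasmic reticulum-associated degradation (ERAD), was linked in TM 2 alone, like ATF6, with a margin of 1.068. Neither protease of ATF6 (MBTPS1 and MBTPS2), none of the NF-Y subunits and none of the chaperone targets HSPA5, HSP90B1, CALR and HERPUD1 was linked. Some ATF6-responsive genes may stand in the other lists, and these statements cover only the 22 genes of this list.

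In the PERK branch 9 of 25 genes were linked, beside 7.31% of all protein-coding genes, although EIF2AK3 itself was not. The genes of this list were chosen with earlier results known, and no test was made of the count. TM-only were TRIB3 (a pseudokinase that inhibits AKT), ATF3 (a stress-induced bZIP factor), GADD45A and GADD45B (growth arrest regulators) and SLC3A2 (the heavy chain of amino acid transporters). Their strongest SEs had margins of 2.035, 1.679 and 2.599 for TRIB3 in TM 1, TM 2 and TM 3, and of 2.666, 2.403 and 2.841 for ATF3. GADD45A had 3.577, 2.079 and 2.387, whereas SLC3A2 had 1.044, 1.158 and 1.134, close to the threshold. The TM 1 value of GADD45A is for 1 SE of 89.44 kb, a stretch listed as separate SEs in TM 2 and TM 3. As deposited, SLC3A2 in TM 1 and TM 3 (19077.4 and 21405.3) lay below the DMSO 1 and DMSO 3 thresholds (24792.5 and 24383.2). Equal signals would not have been listed there, so its TM-only pattern need not be a difference in signal. Its TM 2 signal (30409.5) lay above all DMSO thresholds. The ERN1 margins, 1.870, 2.014 and 1.722, fell between those of GADD45A and SLC3A2. DDIT4, an mTORC1 inhibitor, and SLC7A11, the cystine transporter, were linked in all 6 libraries.

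In DMSO alone, VEGFA, the angiogenic factor, was linked in 2 libraries (26955.2 in DMSO 1 and 42252.8 in DMSO 3). NFE2L2, the oxidative stress factor NRF2, was named in DMSO 1 and DMSO 2 only, but the same stretch was listed in the other 4 libraries under MIR3128, so the locus carried an SE throughout. Of the 3 other kinases of the integrated stress response (EIF2AK1, EIF2AK2 and EIF2AK4), none was linked. Of 22 further genes of ERAD and folding, 1 was linked, ATP2A2, the calcium pump of the endoplasmic reticulum, in DMSO 1 and DMSO 3 (31327.9 and 33772.9).

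**Figure D5:**
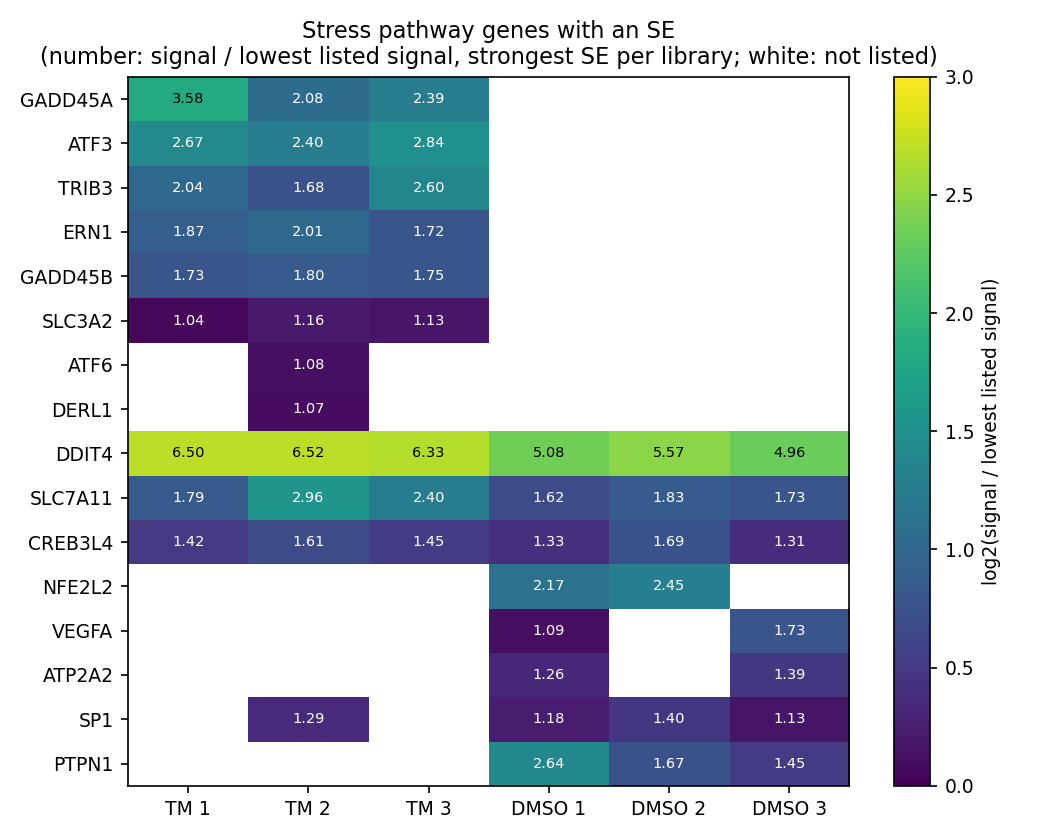
Margin (signal over the lowest listed signal of the library, strongest SE per library) of each linked gene of the stress pathway lists, TM 1 to TM 3 to the left of DMSO 1 to DMSO 3. Numbers give the ratio, colours its log2 value and white cells mean that no SE was listed. ERN1 stands among 6 TM-only genes with margins of 1.870, 2.014 and 1.722, and ATF6 and DERL1 are filled in TM 2 only (1.085 and 1.068).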

How the data were processed

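H3K27ac ChIP-seq of HepG2 cells (3 TM and 3 DMSO libraries, grouped by the treatment in the labels) was deposited as 1 SE list per library. The labels also describe an input library, not analysed here. CASAVA (version 1.4), mm9 and hg38 stand in the submitters' processing notes without a role. The peak caller's settings, the stitching distance and the build of the positions are not given in the sources that were used. The deposited signal is a sum over the region, equal to a density in steps of 0.0001 per bp (100.0% of SEs, tolerance 0.001 of a step) times the length, and any scaling by depth or input is not stated. The other deposited values, the distances from the start site, refer to the midpoint of an SE. Positions did not match GRCh38 and are printed as deposited.

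RefSeq GRCh38.p14 gave current gene names by Entrez ID (7434 of 7472 SEs matched, 11 had no gene, and 120 of 121 list symbols were found in it), and also promoters (10 of 10 sensors matched) and gene order. SEs sharing 1 bp or more were merged into 1784 regions, 670 of them called in all 6 libraries. Calls and log2 signals were compared by exact permutation tests over samples, with an unlisted library set at its lowest listed signal. Alternatives were other gene links, stricter thresholds, both scalings, each library left out, and a replicate block. A limma fit planned for shared regions was not run, since no ERN1 or ATF6 region was called in all 6 libraries. Named genes were ERN1, ATF6, linked genes of the lists, SEs within 1 Mb and the 5 genes most like each. Genes and lists were chosen with earlier results of these data known. Python 3.11.15, pandas 2.3.3, numpy 2.4.6, scipy 1.17.1 and matplotlib 3.10.9 were used. The TM-only call was checked on simulated lists with planted genes, and the exact tests on small vectors with known p-values. The comparison with limits and the scalings were not simulated. The result for 1 withheld item is not reported here.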

Additional observations from a re-analysis of the deposited data

How the results depend on the processing

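The ERN1 call (3 of 3 TM, 0 of 3 DMSO) held under every alternative run: linking by overlap, the 1130 strongest SEs of each list, a margin of at least 1.5, and each library left out. Of these, only linking by overlap could have added a DMSO call. The stricter lists could only remove calls, and with a library left out the pattern could not change. Its lower bound ranged from 0.62 to 0.98 on the log2 scale with 1 library left out, and the ratio of its lowest TM signal to the highest DMSO threshold from 1.312 to 1.379. The ATF6 call rested on TM 2. The difference in the share of libraries, 0.333 in all 6, was 0.0 with the 1130 strongest SEs or with a margin of 1.5, and with 1 library left out ranged from 0.0 (without TM 2) to 0.5 (without TM 1 or TM 3). Its ratio to the highest threshold of the libraries that did not list it, 1.149, was 0.787 scaled by density and 0.894 by total signal. The number of TM-only genes, 139, ranged from 147 to 220 with 1 library left out (220 without TM 1). A call needed in fewer libraries is easier to meet. With a replicate block the values were 1.0 for the ERN1 call and 0.85 on the log2 scale for its bound (both p = 0.25, the smallest exact p of 3 sign flips) and 0.333 for the ATF6 call (exact p = 1.0). The same-numbered libraries did not deviate together (r = -0.008, -0.047 and -0.026 over 670 regions), so the numbers were not taken as pairs. The lists give no value below a threshold, so the signal in DMSO cannot be sized beyond these bounds.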
